A study of Mus musculus with 19 samples.

Results

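The comparison set 4 of 19 cortical RNA libraries, those with almost no Cst7 transcript, against the other 15. Cst7 encodes cystatin F, a cathepsin inhibitor made in the brain by activated microglia. A library belonged to the first class when Cst7 was below 1 CPM, where CPM scales a count to the library's total of reads on genes. The 4 libraries below it held 0, 0.117, 0.161 and 0.259 CPM, the next lowest library held 17.0 CPM and the highest 123 CPM, so no library lay near the threshold. The libraries were thus chosen by their Cst7 values, which are given as a description only. All 19 libraries are labelled male P301S/E4 cortex at 41 weeks, a genotype that refers to a tau mutation of human dementia and to the E4 allele of the APOE gene. The labels name neither the mouse line nor the promoter of a transgene, and no library without that genotype was among the 19. Lemborexant, an antagonist of both orexin receptors, was gavaged daily at 30 mg/kg at zeitgeber time 13 from 7.5 to 9.5 months of age, and controls were gavaged with 0.5% methylcellulose.

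Of the lemborexant libraries, 3 pairs were nearly alike (their chi-square divided by its degrees of freedom was 3.08 to 3.66, while the 168 other pairs ran from 12.2 to 274), and each pair was summed and counted once. This left 16 units. The Cst7-low class held 3 units, which were lemborexant 1 and 10 summed, vehicle 1 and vehicle 4. The Cst7-high class held 13 units, 6 of lemborexant and 7 of vehicle. Class was set against treatment by Fisher's exact test (two-sided, p = 1). With 3 low units no split could pass 0.05, so that test cannot show whether treatment and class were balanced. Libraries held 20185098 to 31795633 reads on genes. Totals, ribosomal shares and mitochondrial shares did not differ past 0.05 between the classes (exact two-sided permutation tests over 3 and 13 units, p = 0.186, 0.746 and 0.271). The labels do not say that each library is a separate mouse, so the spread below is that between these units.

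Gliosis is the reaction of microglia and astrocytes to injury or protein deposits. In mice that express mutant tau, microglia leave the homeostatic state marked by P2ry12 and Tmem119 and switch on a program that depends on the receptor Trem2 and its adaptor Tyrobp, with Clec7a, Itgax and Cst7 among its genes. Astrocytes raise the intermediate filament Gfap, and interferon-stimulated, antigen presentation and T cell transcripts rise as the disease advances. In bulk tissue, fewer cells of a type and less RNA per cell cannot be told apart. Because the units were sorted by a microglial gene measured in the same libraries, the p-values below describe how sharply a gene separated these 16 units and are not tests of a condition that was assigned. Differences are given as Cst7-low minus Cst7-high on the log2 scale, with treatment as a covariate. The gene lists were chosen with earlier results of these data known, so the counts of called members are a description.

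The activated microglia genes Clec7a and Itgax were almost absent from the Cst7-low units. Clec7a, the pattern recognition receptor Dectin-1 (ENSMUSG00000079293, GRCm38 chr6:129461591-129472779), stood at 0.165 CPM in lemborexant 1 and 10, 0.291 in vehicle 1 and 0.473 in vehicle 4. The 13 Cst7-high units ran from 20.1 to 134 CPM with a median of 56.6. The classes were far apart, and the low units rested on 25 reads in all, with a ratio of high to low of 230 (95% counting interval 156 to 356, log2 change -7.75 ± 0.84 SE, edgeR adjusted p = 5.72e-05). Itgax, the integrin subunit CD11c, rested on 8 reads in the low units and showed a ratio of 260 (132 to 603, edgeR adjusted p = 9.71e-06). Counting intervals cover counting error only.

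Trem2, the receptor that senses lipids and debris (ENSMUSG00000023992, chr17:48346401-48354147), remained measurable in every unit. It stood at 9.98, 16.6 and 26.8 CPM in the low units, in the order above, and at 73.6 to 324 CPM in the high units with a median of 149. All 3 low units lay below all 13 others, and the log2 change was -3.26 ± 0.51 (SE) at an edgeR adjusted p of 0.000545. Tyrobp, which carries the signal of Trem2, stood at 16.8, 17.9 and 37.5 CPM against 67.6 to 464 CPM (log2 change -2.99, edgeR adjusted p = 0.0054), and the call was lost without lemborexant 1 and 10. Csf1, a growth factor for microglia, was 11.8 to 14.1 CPM in the low units and 33.1 to 65.4 CPM in the others (log2 change -1.89 ± 0.20 SE, edgeR adjusted p = 5.58e-05).

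Of 25 genes of the disease-associated microglial program, 20 were called lower in the Cst7-low units and 0 higher, with a median log2 change of -2.50 against 0.01 over all genes. The summed level of the list was 1709 to 1939 CPM in the low units and 3326 to 10113 CPM in the high units. Over all 20589 genes tested, 9.36% were called, 7.81% lower and 1.55% higher. Cst7 itself was left out of these counts, but its membership in this program fixed the direction of the microglial lists, which are therefore a description. The 5 members that were not called were Hif1a, Ch25h, Ank, Fabp5 and Timp2. Among 16 genes of microglia and macrophages in general, 13 were called lower (median log2 change -2.36). They included Ptprc, the leukocyte marker CD45, at 1.94 to 3.84 against 13.5 to 33.4 CPM, and Irf8, a transcription factor of myeloid cells, at 5.604 to 7.04 against 21.4 to 60.4 CPM. The 3 not called were Mrc1, Lyve1 and Cd163, which mark macrophages of the brain's borders.

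Most markers of resting microglia were lower, but not all were called. P2ry12, the ADP receptor of resting microglia, stood at 37.3, 80.4 and 96.6 CPM in the low units and at 39.4 to 118 CPM in the high units with a median of 74.6. Lemborexant 1 and 10 lay just below all high units, and the other low units lay among them (log2 change -0.17, edgeR adjusted p = 0.719). The log2 change was -0.84 within lemborexant and 0.11 within vehicle, and it turned to 0.13 without lemborexant 1 and 10. Tmem119 stood at 13.7, 19.8 and 29.4 CPM against 16.7 to 39.2 CPM (log2 change -0.54, edgeR adjusted p = 0.101). Csf1r, the receptor for Csf1, was lower, at 74.1 to 97.8 against 145 to 304 CPM (log2 change -1.56 ± 0.20 SE, edgeR adjusted p = 0.000139). The fractalkine receptor Cx3cr1 was at 66.5 to 78.8 against 109 to 251 CPM and was called lower. In all, 8 of 15 homeostatic genes were called lower and 0 higher (median log2 change -0.87). The count was 5 without lemborexant 1 and 10. In 14 of the 15 genes the log2 change was negative. The list summed to 1074 to 1213 CPM in the low units and to 1719 to 3402 CPM in the high units.

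**Figure D1:**
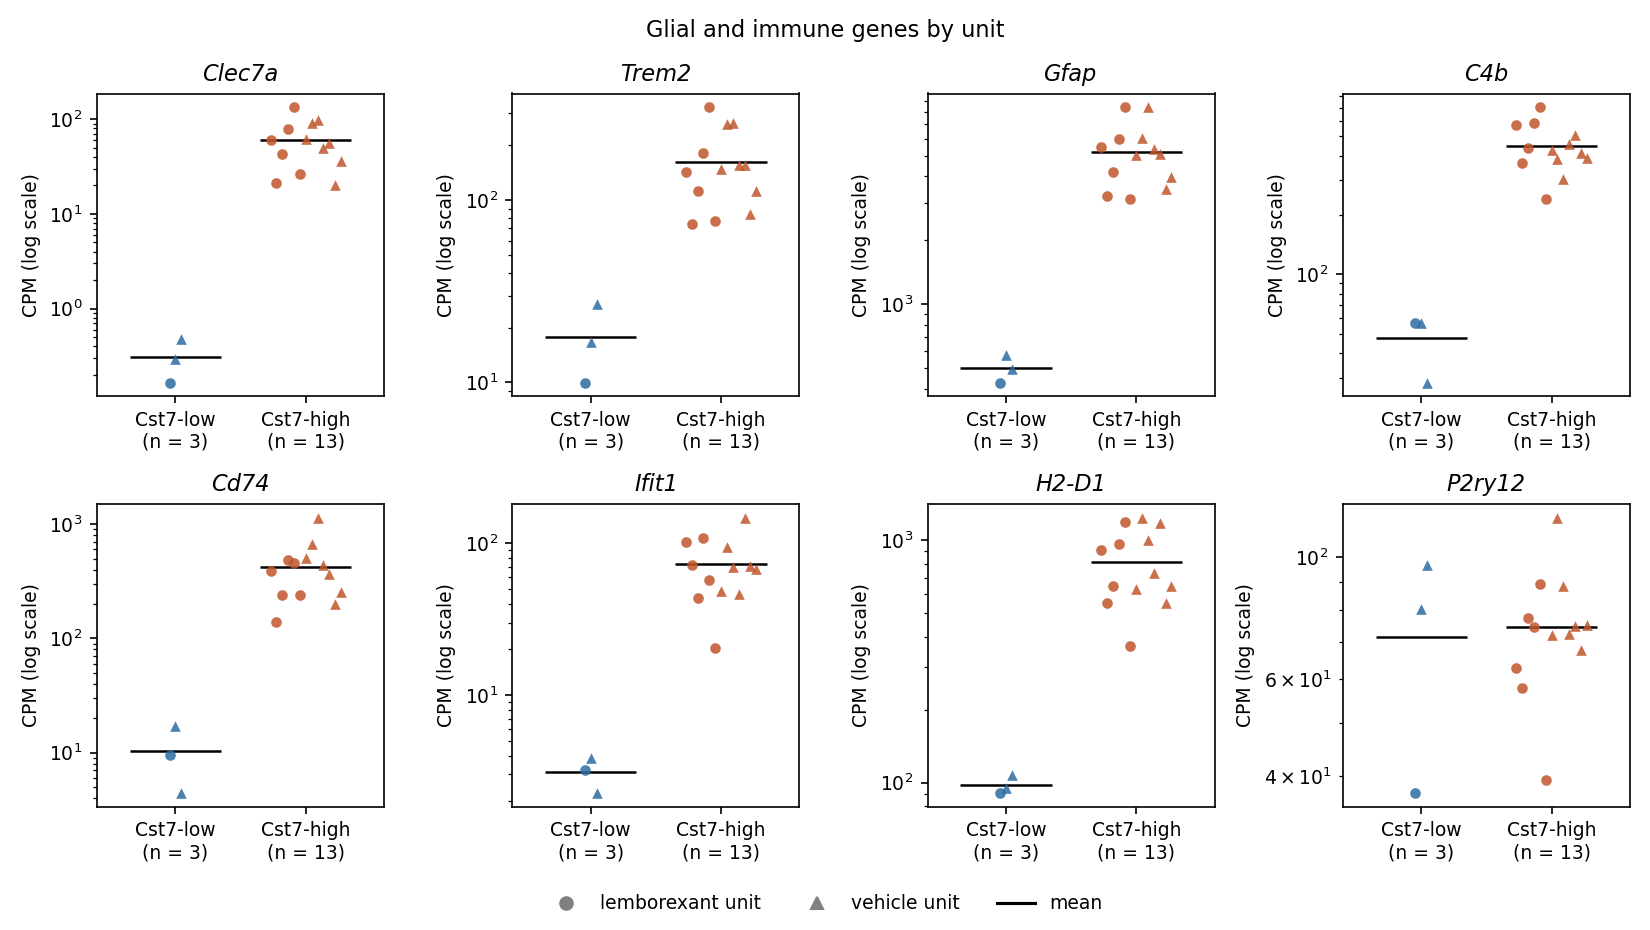
CPM on a log scale for 8 genes in the 3 Cst7-low and 13 Cst7-high units. Circles are lemborexant units, triangles vehicle units and bars class means. P2ry12 overlaps between the classes (37.3 to 96.6 against 39.4 to 118 CPM), and the low units lie below all others for each of the other 7 genes.

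Complement transcripts, which tag synapses and debris for removal, were lower with few exceptions. C4b stood at 56.9, 57.1 and 28.3 CPM in the low units and at 242 to 702 CPM in the high units, with a median of 428. The classes did not overlap (log2 change -3.20 ± 0.31 SE, edgeR adjusted p = 5.1e-05). Serping1, the inhibitor of C1, was at 5.34 to 11.02 against 23.1 to 89.8 CPM (log2 change -2.48, edgeR adjusted p = 0.00013). Of 13 complement genes 11 were called lower and 0 higher, with a median log2 change of -2.79. C2 and C5ar1 were not called.

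Reactive astrocyte genes were lower as well. Gfap (ENSMUSG00000020932, chr11:102887336-102900912) stood at 427, 575 and 494 CPM in the Cst7-low units. The high units ran from 3113 CPM in lemborexant 7 to 8436 CPM in lemborexant 6, with a median of 5071 CPM. The lowest high unit held 5.41 times the highest low unit. The means were 499 ± 74 (SD, n = 3) and 5218 ± 1737 CPM (SD, n = 13), and the log2 change was -3.41 ± 0.35 (SE) at an edgeR adjusted p of 5.1e-05. Serpina3n, a secreted protease inhibitor of reactive astrocytes, was at 51.5, 50.5 and 78.8 against 124 to 383 CPM (log2 change -1.98, edgeR adjusted p = 0.000437). The transcription factor Stat3, which drives the reactive state, was at 31.6 to 34.3 against 60.2 to 94.3 CPM (log2 change -1.15 ± 0.12 SE, edgeR adjusted p = 5.1e-05). Gfap, Trem2 and Tyrobp were all detected in the low units, and with no library free of the genotype the level without gliosis is not known, so the classes are named by Cst7 alone. Aspg, an asparaginase of reactive astrocytes, was at 0.756 to 2.52 against 8.26 to 23.2 CPM.

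Of 20 reactive astrocyte genes 15 were called lower and 0 higher (median log2 change -2.04). Cp, Hspb1, Timp1, Lcn2 and Tnc were not called. Of 14 homeostatic astrocyte genes 8 were called lower and 1 higher (median -0.63), or 4 and 0 without lemborexant 1 and 10. The 1 called higher was Fgfr3 (log2 change 0.37, edgeR adjusted p = 0.0142). S100b, Slc7a10, Aldoc, Glul and Slc1a2 were not called. The water channel Aqp4 stood at 77.1 to 116 against 273 to 678 CPM (log2 change -1.98 ± 0.28 SE, edgeR adjusted p = 0.000281). Gja1, the gap junction protein connexin 43, was at 286 to 378 against 496 to 721 CPM (log2 change -0.82, edgeR adjusted p = 0.000485), and Sox9, an astrocyte transcription factor, was at 35.1 to 40.6 against 53.6 to 105 CPM.

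Every one of the 22 interferon-stimulated genes tested was called lower in the Cst7-low units, with a median log2 change of -4.12, and in 21 of them the classes did not overlap. The share of all genes with all 3 low units below all others was 6.8%. To show a motif that part of these promoters hold, the 250 bases upstream of the RefSeq start of 3 members that hold it are printed (GRCm38.p6, 5′ to 3′ in the direction of the gene). Capitals mark matches to GAAA, any 2 bases, then GAAA on either strand, the core of the interferon-stimulated response element. Matches that share bases run together.
Ifit1, chr19:34640639-34640888, plus strand: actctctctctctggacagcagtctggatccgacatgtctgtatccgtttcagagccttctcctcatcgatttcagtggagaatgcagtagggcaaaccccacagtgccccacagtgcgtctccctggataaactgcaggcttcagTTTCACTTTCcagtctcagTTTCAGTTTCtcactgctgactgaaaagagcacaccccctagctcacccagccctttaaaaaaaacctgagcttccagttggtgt
Isg15, chr4:156200819-156201068, minus strand: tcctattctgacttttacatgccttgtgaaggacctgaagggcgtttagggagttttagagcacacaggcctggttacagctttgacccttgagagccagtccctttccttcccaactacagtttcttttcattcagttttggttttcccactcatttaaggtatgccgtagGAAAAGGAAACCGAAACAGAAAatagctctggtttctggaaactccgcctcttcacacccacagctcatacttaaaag
Cxcl10, chr5:92348890-92349139, minus strand: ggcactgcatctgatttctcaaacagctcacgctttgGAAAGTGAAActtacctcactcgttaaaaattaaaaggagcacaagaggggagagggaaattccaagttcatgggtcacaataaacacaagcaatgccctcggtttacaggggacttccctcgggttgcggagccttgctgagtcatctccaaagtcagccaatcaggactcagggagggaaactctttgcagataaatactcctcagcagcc
The promoters of 15 of the 22 genes were in the RefSeq table, and 9 of these 15 (60.0%) held the motif. It was found upstream of 3.46% of all 27025 genes in that table. Ifit1 held 2 matches, the nearer 75 bases before its start, Isg15 held 3 from 56 bases before its start, and Cxcl10 held 1 at 203 bases. A match is a description of letters and was not tested as a binding site.

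Ifit1, which blocks translation of foreign RNA, stood at 3.22, 3.83 and 2.27 CPM in the low units and at 20.4 to 148 CPM in the high units, with a median of 69.4. Lemborexant 7 was the lowest of the high units, and no unit overlapped (log2 change -4.56 ± 0.54 SE, edgeR adjusted p = 8.52e-05). Usp18, which restrains interferon signalling, was at 2.52 to 3.06 against 15.2 to 97.0 CPM (log2 change -4.38, edgeR adjusted p = 8.52e-05). The interferon-induced chemokine Cxcl10 was at 0.236 to 0.339 against 5.33 to 34.0 CPM, a ratio of 69.9 (48.4 to 105, 28 reads in the low units). Zbp1, a sensor of nucleic acids that can trigger cell death, rested on 7 reads in the low units, with a ratio of 74.7 (36.2 to 186). Related interferon-inducible genes were among the 12 largest decreases chosen for naming. Oas1g had a ratio of 104 (35.7 to 506, 3 reads), Ifi206 of 111 (30.6 to 913, 2 reads) and Ifi211 of 81.2 (34.8 to 250, 5 reads). These belong to families of close copies between which the authors' counting may have divided reads.

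Antigen presentation genes followed. H2-D1, a classical MHC class I heavy chain, stood at 90.7, 95.4 and 108 CPM in the low units against 367 to 1243 CPM (log2 change -3.08 ± 0.37 SE, edgeR adjusted p = 8.52e-05), and reads may be shared with its near-identical relatives. Nlrc5, the activator of class I genes, was at 0.331 to 0.615 against 2.94 to 9.47 CPM (log2 change -3.33, edgeR adjusted p = 9.61e-05). The peptide transporter Tap2 was at 12.4 to 16.2 against 25.6 to 40.0 CPM. Of 15 class I genes 14 were called lower (median log2 change -2.49), and Psmb10 was not called. Cd74, the invariant chain of class II, stood at 9.54, 17.1 and 4.44 CPM against 139 to 1142 CPM with a median of 385 (log2 change -5.38 ± 0.67 SE, edgeR adjusted p = 0.000103). Of 8 class II genes 6 were called lower (median log2 change -3.19), and H2-DMa and Ciita were not.

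Most chemokine and T cell genes were lower in the Cst7-low units. Ccl5, which attracts T cells, stood at 0.368, 0.388 and 0.142 CPM in the low units against 3.94 to 52.0 CPM with a median of 18.1, a ratio of 64.6 (45.5 to 95.0, edgeR adjusted p = 8.52e-05). Cxcl13, which attracts B cells, rested on 5 reads, with a ratio of 115 (49.3 to 354). Cxcl9 had 0 reads in the low units and 0.315 to 4.30 CPM in the others, at least 68.6-fold higher in the latter when 3 reads over the low class are taken as the limit of detection. Of 15 chemokines 12 were called lower, with a median log2 change of -5.33, which stood at -5.33 with Cxcl9 at that bound. Cx3cl1, Cxcl12 and Cxcl14 were not called. The summed level of the list overlapped between the classes, at 281, 346 and 353 against 284 to 951 CPM.

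Among T cell genes, Cd3g, a chain of the T cell receptor complex, was at 0.0368 to 0.0485 CPM (4 reads) against 0.471 to 2.39 CPM, a ratio of 29.1 (11.4 to 107). Nkg7, a granule protein of cytotoxic cells, was at 0.0184 to 0.194 against 1.08 to 6.79 CPM, a ratio of 50.3 (23.1 to 137). Of 17 T cell genes 12 were called lower and 0 higher (median log2 change -3.42). The 5 not called were Lck, Trac, Trbc2, Cd4 and Gzmk. The summed level of the list was 6.40 to 9.87 CPM in the low units and 30.5 to 79.0 CPM in the high units. Ccl5 was a member of this list too. It held 52.0 of the 75.7 CPM in vehicle 7 and 3.94 of the 30.5 CPM in lemborexant 7. Pdcd1, which encodes the checkpoint receptor PD-1, was not in the list but among the 12 largest decreases chosen for naming. It stood at 0.0551, 0.339 and 0 CPM against 5.04 to 32.8 CPM with a median of 13.3, a ratio of 125 (68.2 to 262, edgeR adjusted p = 8.52e-05).

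Lysosomal and lipid genes differed by less. Ctss, a cathepsin of microglia, stood at 92.4, 94.5 and 156 against 358 to 1546 CPM (log2 change -2.82 ± 0.44 SE, edgeR adjusted p = 0.000508). Ctsz was at 66.7 to 94.7 against 232 to 809 CPM, and Grn, the precursor of lysosomal granulins, was at 75.6 to 79.9 against 123 to 333 CPM. Of 25 lysosome genes 20 were called lower (median log2 change -1.10). Abca1, a cholesterol exporter, was at 15.2 to 18.7 against 33.0 to 143 CPM and Plin2, a lipid droplet coat protein, was at 9.60 to 11.96 against 20.8 to 52.5 CPM. Clu, the chaperone clusterin, was at 1825 to 1977 against 2875 to 6087 CPM (log2 change -1.21 ± 0.20 SE, edgeR adjusted p = 0.000848). Of 12 lipid transport genes 6 were called lower and 0 higher. Atp6v0d2, a subunit of the lysosomal proton pump, rested on 5 reads in the low units, with a ratio of 74.3 (31.8 to 229), and its call was lost without lemborexant 1 and 10 or without vehicle 4.

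Apoe, the lipoprotein gene whose human E4 form the genotype names, was counted on the mouse gene model. It stood at 22.03, 30.5 and 44.7 CPM in the low units and at 47.7 to 373 CPM in the high units with a median of 116. The highest low unit was close to the lowest high unit, and the log2 change was -1.96 ± 0.52 (SE, edgeR adjusted p = 0.0225). The call was lost without lemborexant 1 and 10 or without vehicle 1. Its neighbour Apoc4 rested on 3 reads in the low units, with a ratio of 253 (86.6 to 1227), and was highest in lemborexant 6 at 36.0 CPM. The call of Apoc4 was lost without lemborexant 1 and 10, vehicle 1 or vehicle 4. How reads of a human APOE transcript were assigned was not tested.

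**Figure D2:**
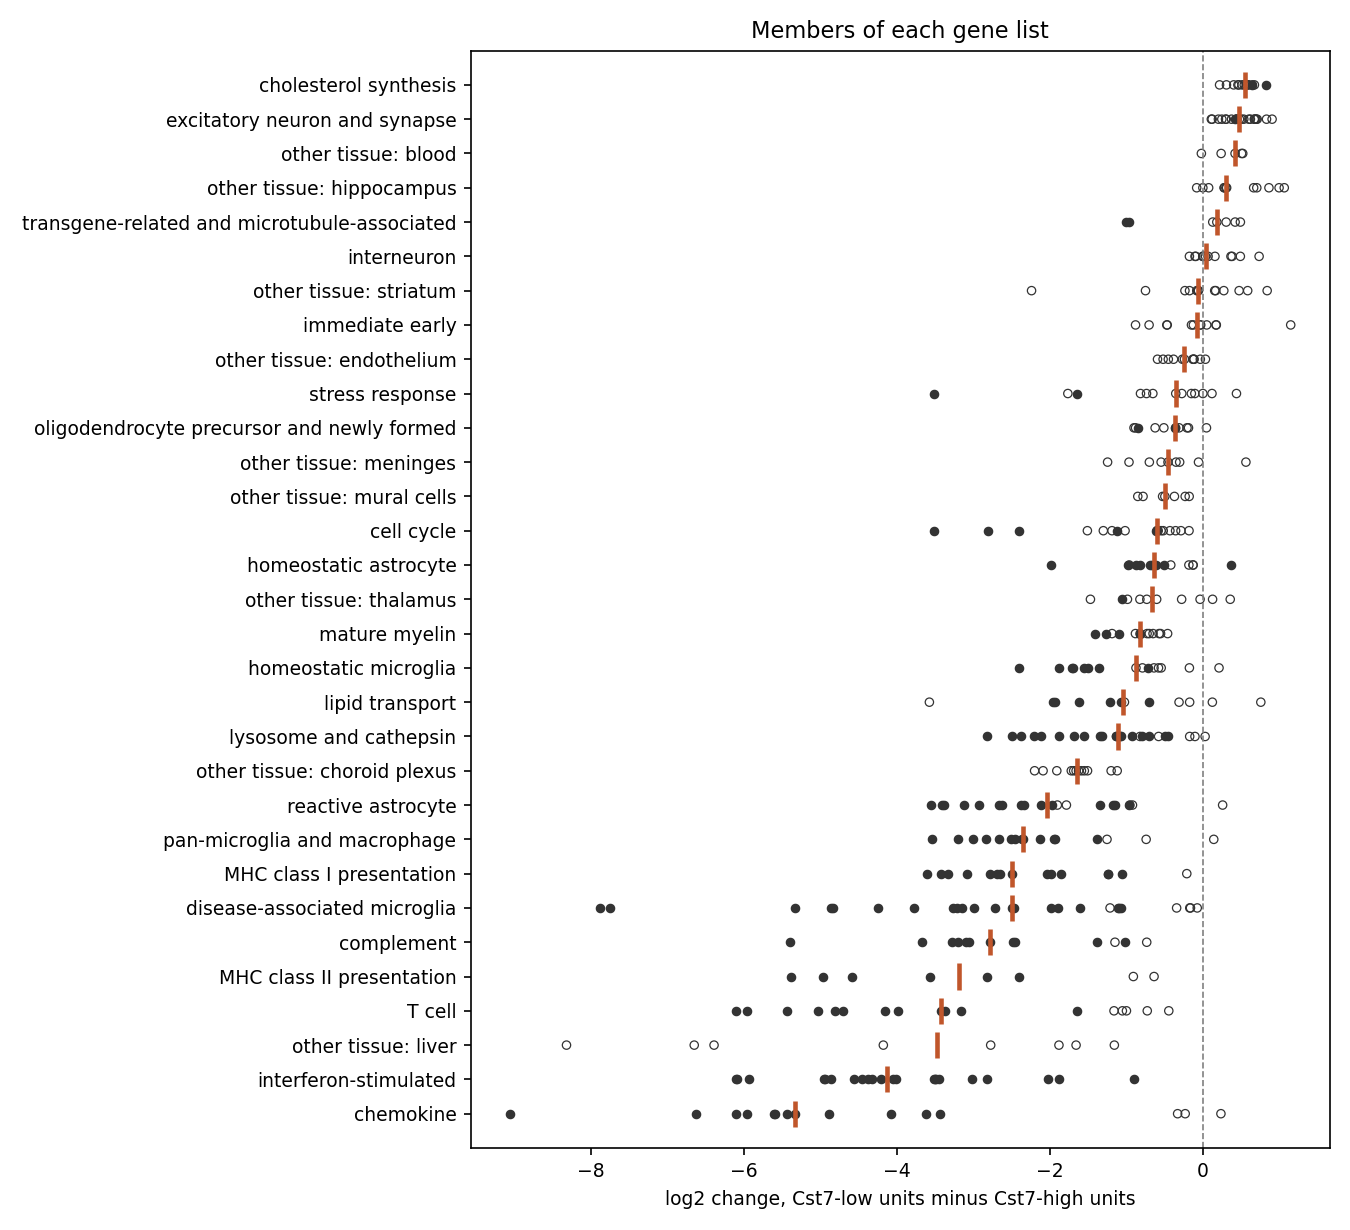
Log2 change, Cst7-low minus Cst7-high units, of each tested member of 31 gene lists. Filled circles passed an edgeR adjusted p of 0.05, open circles did not, orange bars are list medians and the dashed line is the median of all genes (0.01). Chemokine (-5.33) and interferon-stimulated genes (-4.12) have the lowest medians among lists with called members, and the genes of excitatory neurons and of cholesterol synthesis lie to the right of the line.

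Mapt, the gene of tau itself, was also lower in the Cst7-low units (ENSMUSG00000018411, chr11:104231390-104332090). It stood at 454 CPM in lemborexant 1 and 10, 463 in vehicle 1 and 313 in vehicle 4. The high units ran from 557 CPM in lemborexant 6 to 1016 CPM in lemborexant 3 and 8, with a median of 751. The classes did not overlap, and the means were 410 ± 84.2 (SD, n = 3) and 795 ± 164 CPM (SD, n = 13), and the log2 change was -0.96 ± 0.20 (SE) at an edgeR adjusted p of 0.00553. Without vehicle 4 the log2 change was -0.78 and the adjusted p 0.055. On log2(TPM + 1), which takes account of the length of the transcripts assigned, it was -1.80 (limma adjusted p = 0.00103). Mapt was counted on the mouse gene model, and how reads of a human tau transcript were assigned was not tested.

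The distribution of reads among Mapt transcripts differed between the classes. The authors' program gives an effective length per gene, which moves with the mix of transcripts to which reads were assigned. For Mapt it was 3420, 3313 and 3294 bases in the low units and 1618 to 2334 bases in the high units, with a median of 1835. At the level of libraries the ranges were 3294 to 3528 bases in the 4 Cst7-low and 1618 to 2334 bases in the 15 others. The means of the units were 3342 ± 68.1 and 1903 ± 189 bases (SD, n = 3 and 13, exact two-sided permutation test, p = 0.00357, the smallest this design gives). This measure was chosen after its values were seen. Of the 20589 genes, 111 (0.539%) had a longer effective length in all low units than in any other, and by ratio Mapt stood at rank 4 among these, after Ano7, Morn3 and Ccl9. Map2, a microtubule-associated protein of dendrites, overlapped between the classes, at 3399, 3465 and 3772 bases in the low units and 3382 to 3667 in the others (exact p = 0.971).

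Prnp, the prion protein gene (ENSMUSG00000079037, chr2:131909928-131938429), was the other called member of a list of 7 microtubule and transgene-related genes. The promoter of Prnp drives human tau in a widely used P301S line, but the labels do not say which line this was. Prnp stood at 677, 825 and 1042 CPM in the low units and at 1035 to 2117 CPM in the high units with a median of 1747. Only vehicle 4 reached into the high range, just above lemborexant 7 and below the 7 high vehicle units, which began at 1698 CPM. The log2 change was -0.998 ± 0.15 (SE, edgeR adjusted p = 0.000434) and lay between -1.08 and -0.91 under the alternatives. The effective length of Prnp was 2037 to 2046 bases in the low and 2026 to 2045 bases in the high units. Map2 stood at 563 to 763 against 309 to 609 CPM (log2 change 0.43, edgeR adjusted p = 0.164), and Map1a, Map1b, Map4 and Map6 were not called.

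Lamr1-ps1, a processed pseudogene that ends 4969 bases before the start of Prnp on the same strand (chr2:131904086-131904959), had 0 reads in the 3 low units. Each of the 13 high units held 13 to 67 reads of it, 383 in all, or 0.441 to 1.70 CPM. Its level was at least 30.9-fold higher in the high units, taking 3 reads over the low class as the limit of detection. It was picked after its values were seen. Among 1928 called genes, 8 had no reads in the low units, and the others were Gbp2b, Cxcl9, Ifi213, Tnip3, Gm47629 and the chromosome 3 models 4930590L14Rik and Gm6214. The call of Gbp2b (edgeR adjusted p = 0.0495) was lost without any 1 of 12 of the 16 units. The tables hold only mouse genes (55487 mouse identifiers), so a human tau transcript has no entry of its own. Whether the 4 Cst7-low libraries carry a tau transgene was not tested.

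**Figure D3:**
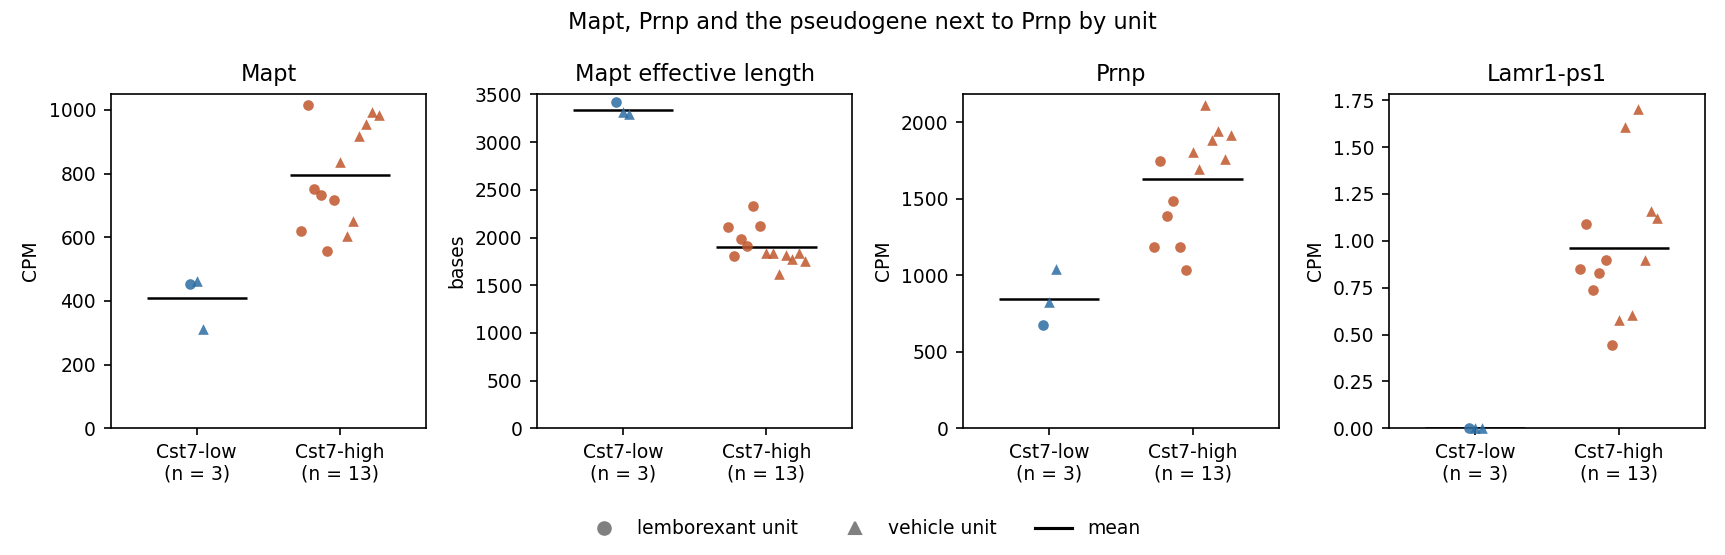
Mapt level, Mapt effective length, Prnp level and Lamr1-ps1 level in the 3 Cst7-low and 13 Cst7-high units, in CPM or bases. Circles are lemborexant units, triangles vehicle units and bars class means. The low units have longer Mapt effective lengths (3294 to 3420 bases) than all others (1618 to 2334 bases) and no Lamr1-ps1 reads.

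Transcripts of excitatory neurons lay on the other side. All 23 tested genes of excitatory neurons and synapses had positive log2 changes, with a median of 0.48, but only Rab3a, a vesicle protein of nerve terminals, was called (723, 738 and 967 against 429 to 706 CPM, log2 change 0.42, edgeR adjusted p = 0.0494). That call was lost without any 1 of 12 of the 16 units. Snap25, a core protein of vesicle fusion, stood at 5197, 4546 and 4661 CPM in the low units and at 1614 to 3941 CPM in the high units. Its classes did not overlap, and its log2 change of 0.71 ± 0.23 had an edgeR adjusted p of 0.0665. Camk2a, a kinase of excitatory synapses, was at 2494 to 2813 against 406 to 2275 CPM (edgeR adjusted p = 0.112). The summed level of the list was 14950 to 15895 CPM in the low units and 5265 to 12953 CPM in the high units.

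The summed level of 12 hippocampal markers was 407 to 534 CPM in the low units and 89.8 to 472 CPM in the high units, with no member called. The unit lowest for Camk2a was lemborexant 7, and the unit lowest for Snap25 was lemborexant 6. Slc17a7, a member of the excitatory list, stood at 15.0 CPM in lemborexant 7 and at 90.4 CPM in lemborexant 2, the next lowest unit. The part of tissue makeup in the neuronal values was not tested. None of 13 interneuron genes and none of 12 immediate early genes was called by edgeR, with 2 and 1 at an unadjusted p under 0.05. Over all 20589 genes 9.36% were called and 4838 had an unadjusted p under 0.05. In lists this short, 0 calls is near that share. Without lemborexant 1 and 10, 2 immediate early genes were called lower.

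Myelin and oligodendrocyte genes differed modestly. Mbp, myelin basic protein, stood at 2945, 4656 and 3855 CPM in the low units (log2 change -0.55, edgeR adjusted p = 0.195). The iron carrier Trf was at 505 to 745 against 892 to 2473 CPM (log2 change -1.41 ± 0.32 SE, edgeR adjusted p = 0.00856), a call lost without lemborexant 1 and 10 or without vehicle 4. Of 13 myelin genes 4 were called lower, a count of 0 without lemborexant 1 and 10, of 1 without vehicle 4 and of 7 without lemborexant 6. Of 11 genes of precursors and new oligodendrocytes, Sox10 and Ptprz1 were called lower. Both calls were lost without lemborexant 1 and 10 or without vehicle 4, and that of Ptprz1 in 10 of 16 such fits.

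Cholesterol synthesis genes all had positive log2 changes in the low units, with a median of 0.56 over 14 genes. Fdft1, squalene synthase, stood at 124, 137 and 145 against 50.6 to 125 CPM (log2 change 0.83 ± 0.20 SE, edgeR adjusted p = 0.0149), and Msmo1 at 78.6, 114 and 134 against 54.6 to 101 CPM (log2 change 0.65, edgeR adjusted p = 0.0413). These were the only 2 called, and 0 were called without vehicle 1 or without vehicle 4. Msmo1 lost its call in 9 of 16 such fits. Of 18 cell cycle genes 5 were called lower, or 2 without lemborexant 1 and 10 or without vehicle 4. Cdk1, the mitotic kinase, was at 0 to 0.242 against 0.796 to 3.91 CPM (17 reads in the low units, a ratio of 10.96, interval 6.85 to 18.8). Of 13 stress response genes, Atf3, a transcription factor of injured cells, was at 0.698 to 0.804 against 5.39 to 13.1 CPM (log2 change -3.51 ± 0.35 SE, edgeR adjusted p = 5.1e-05). Cdkn1a, the cell cycle inhibitor p21, was the other one called lower, and its call was lost without vehicle 4.

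**Figure D4:**
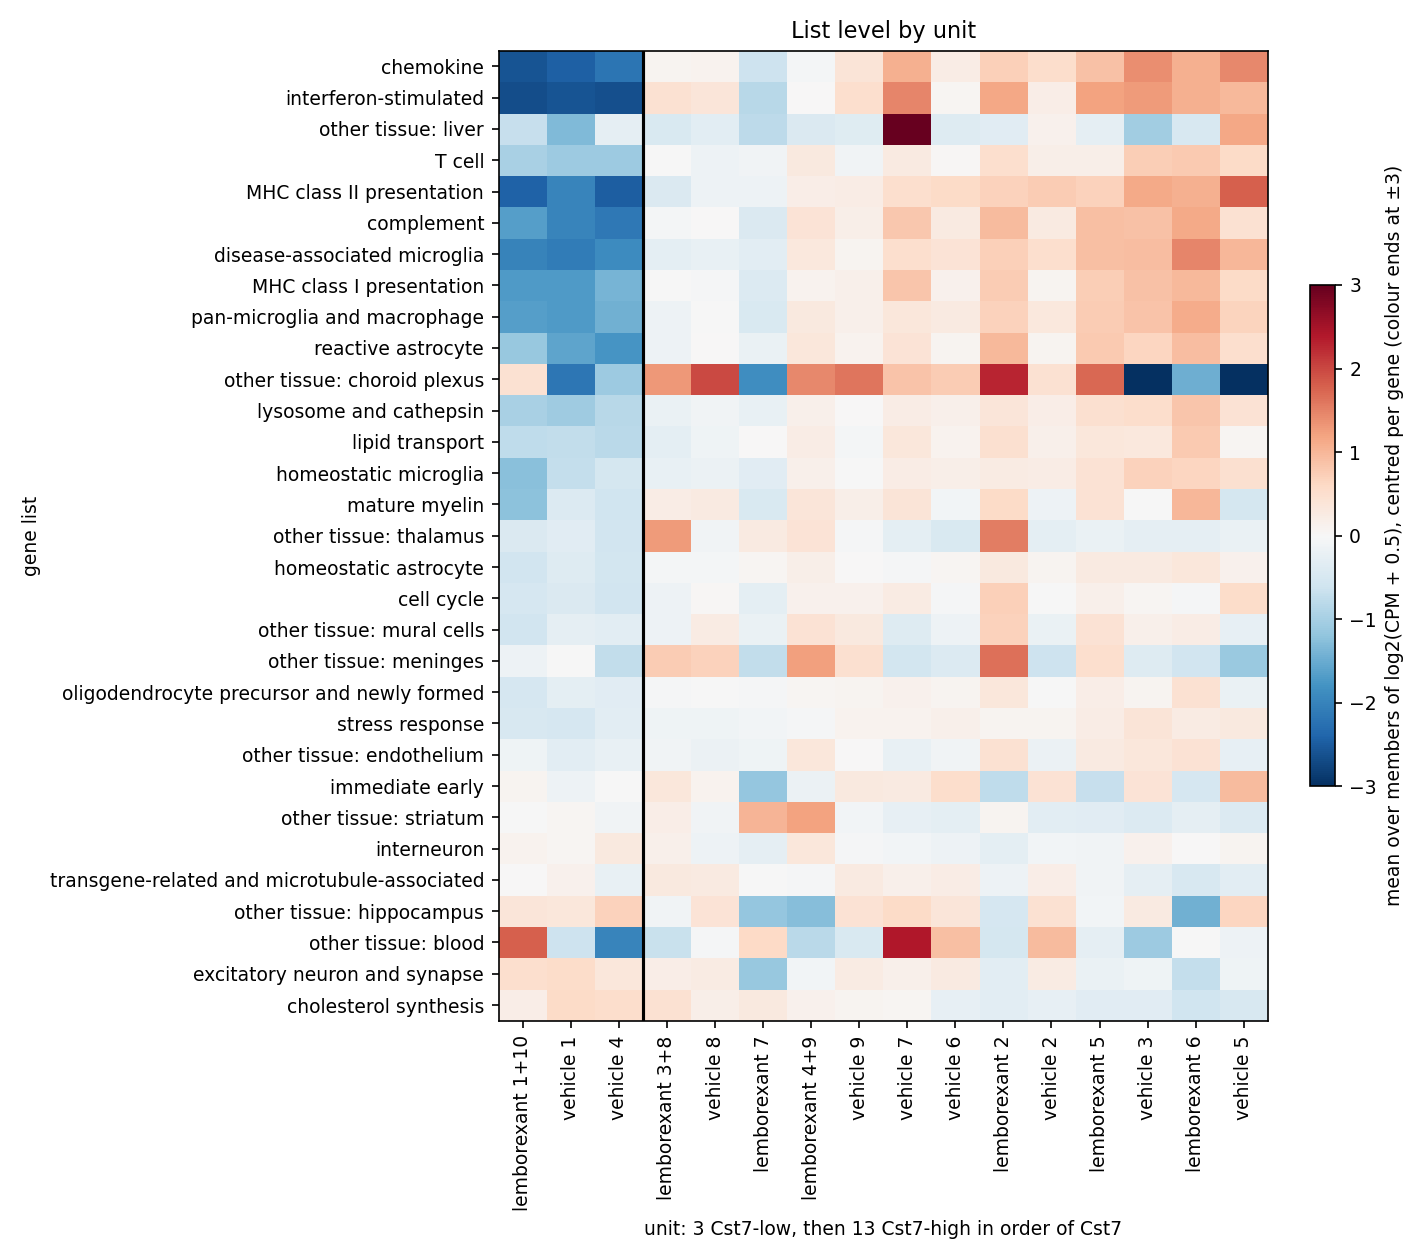
Mean level of each gene list in each of 16 units, as log2(CPM + 0.5) centred per gene on all units and averaged over the list. The 3 Cst7-low units stand left of the line, and the 13 others follow in order of Cst7. The microglial, astrocyte, complement, interferon, antigen presentation, chemokine and T cell lists are lower in each of the 3 units at the left than in any unit at the right, while mature myelin and the lists of other tissues overlap.

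Few markers of other tissues and of vessels were called. The lists of hippocampus, striatum, choroid plexus, meninges, endothelium, mural cells, blood and liver held 76 genes, and 0 of them passed edgeR's adjusted threshold. Over all genes 9.36% passed it. Of the 76, 12 had an unadjusted p under 0.05, against 4838 of all 20589 genes. DESeq2 called 5 of the 76 and voom 10, against 2953 and 4257 of all 20589. In the thalamic list 1 of 10 was called lower, Plekhg1, against 7.81% of all genes, and its call was lost without lemborexant 1 and 10, vehicle 4, vehicle 7 or vehicle 9. The summed mural cell markers did not overlap, at 170, 207 and 204 CPM in the low units and 211 to 415 CPM in the high units, although each of the 7 genes overlapped and none was called by edgeR (voom called 3). The part of vessel content in the glial and immune values was not tested. Choroid plexus genes summed to 4614, 306 and 1671 CPM in the low units and to 182 to 13727 CPM in the high units, so the range of either class was wide. Hemoglobin genes and Alas2 summed to 8.13 to 175 against 19.4 to 276 CPM.

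Across all genes, 1928 of 20589 were called, 1608 lower and 320 higher in the Cst7-low units. DESeq2 called 2953 with 804 higher, and voom with quality weights 4257 with 1453 higher. Of the edgeR calls 1082 were at least 2-fold lower and 26 at least 2-fold higher, and the median log2 changes were -1.34 and 0.53. All 3 low units lay above all others for 2.59% of genes. Without lemborexant 1 and 10, 739 genes were called, 723 lower and 16 higher, and without vehicle 4, 1245 were called with 115 higher. The higher calls numbered 210 without vehicle 3, 584 without lemborexant 3 and 8, and 531 without lemborexant 7.

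Tgm1, a transglutaminase of epithelial barriers, was the remaining gene among the 12 largest decreases chosen for naming. It had 2 reads in the low units and a ratio of 190 (52.7 to 1573). Increases were smaller. Syt17, a synaptotagmin of hippocampus and cortex, stood at 107, 98.5 and 127 CPM in the low units and at 25.4 to 69.4 CPM in the others (log2 change 1.11 ± 0.21 SE, edgeR adjusted p = 0.00213). Grp, gastrin-releasing peptide, was at 12.6, 23.9 and 36.1 against 3.15 to 15.1 CPM (log2 change 1.30 ± 0.27 SE, edgeR adjusted p = 0.00487). Crym, a thyroid hormone binding protein, was at 249 to 468 against 15.5 to 218 CPM and Krt2, a keratin, was at 4.39 to 6.21 against 0.495 to 4.24 CPM. Among all called genes 2 were at least 4-fold higher, and naming required a mean of at least 1 CPM and a gene name. Of the 12 increases chosen for naming, Glp2r, the receptor for glucagon-like peptide 2, had the largest log2 change, 1.80 ± 0.51 (SE, edgeR adjusted p = 0.0334). It stood at 9.61, 4.02 and 0.851 against 0.189 to 2.55 CPM. Its classes overlapped, and its call was lost without lemborexant 1 and 10, without lemborexant 2, without lemborexant 5 or without vehicle 1. The call of Krt2 was lost without lemborexant 1 and 10, vehicle 1 or vehicle 4. The calls of Grp (without vehicle 4) and Syt17 (without lemborexant 1 and 10) were each lost once, and that of Crym in 11 of 16 such fits.

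The difference was present in both treatments. Within vehicle, 2 low against 7 high units, edgeR called 1006 of 20013 genes (5.03%), 905 lower and 101 higher. For 817 of the 905 (90.3%), the 1 low lemborexant unit, which that fit did not use, lay below all 6 high lemborexant units. Over all genes it did so for 24.6%. For 59 of the 101 (58.4%) it lay above all 6, against 22.3% of all genes. That unit was placed in the low class by the same Cst7 rule, so these shares are a description and not an independent test. Within lemborexant, with 1 low unit, 0 genes passed edgeR's adjusted threshold and 2820 had an unadjusted p under 0.05. A difference in the class effect between treatments was called for 0 of 22593 genes (534 at an unadjusted p under 0.05, lowest edgeR adjusted p = 0.28), and for 3 with the 19 libraries counted separately. For Mapt the log2 change was -0.68 within lemborexant and -1.14 within vehicle, and for Gfap it was -3.57 and -3.34.

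**Figure D5:**
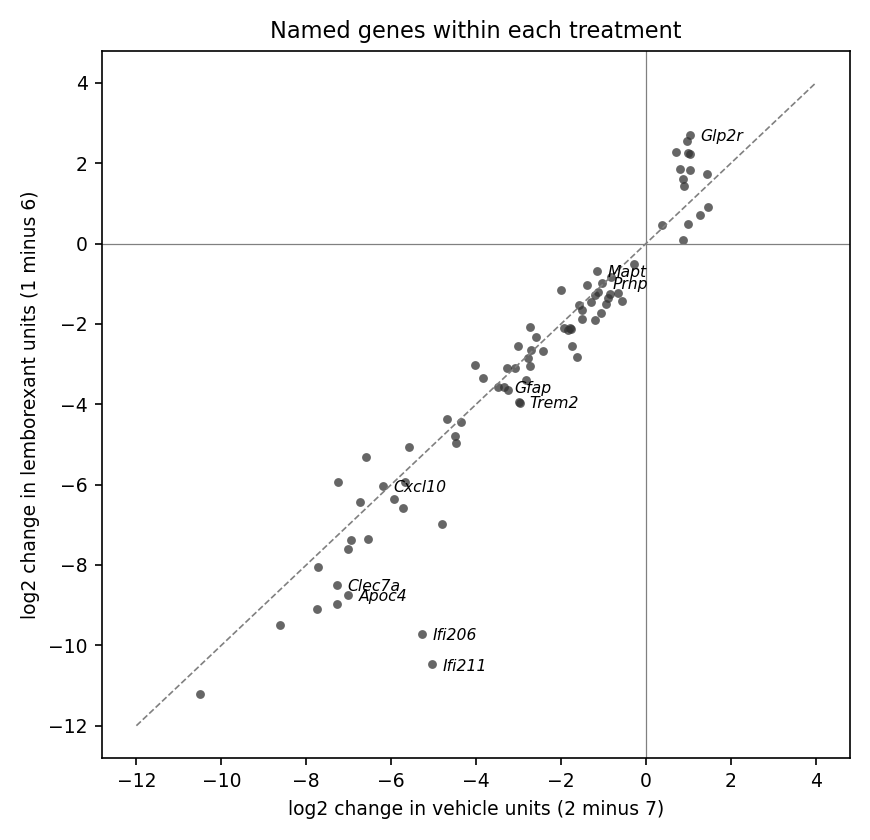
Log2 change, Cst7-low minus Cst7-high, of the 82 called genes among those chosen for naming, within vehicle units (x axis) and within lemborexant units (y axis). Not all 82 are printed in the text. The dashed line marks equal changes. They were chosen in the fit of all units, and all 82 have the same sign in both treatments, with Gfap at -3.34 and -3.57.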

How the data were processed

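Cortical RNA sequencing of 19 libraries was analysed. The submitters' processing notes name bcl2fastq, DRAGEN 3.9.3-8 and the GRCm38 genome. Neither strand setting, filters nor annotation release is named in the sources used here. The deposited tables give, per the file headers, an estimated count, an effective length in bases and a TPM value for each of 55487 genes. Estimated counts were rounded to whole numbers for count tests. The authors' TPM values, relative to length and library total, were used for 2 alternatives. GENCODE's GRCm38 annotation gave symbols for 55141 genes.

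The classes follow Cst7 below or at least 1 CPM. The members and gene lists were chosen with earlier results of these data known. The main test was edgeR 4.0.16 (R 4.3.3, quasi-likelihood, robust, TMM factors, expression filter) on 16 units with treatment as a covariate, two-sided, Benjamini-Hochberg adjusted over 20590 genes, threshold 0.05. The biological coefficient of variation was 0.309. CPM use TMM factors, except where Cst7 sets the classes. The SE of a log2 change is its size over the square root of F. Ratios for genes with few reads divide the mean of the high units by the pooled low level, with exact 95% Poisson intervals. The fit was tested on simulated data. Single values were tested by exact permutation over units (SciPy 1.17.1).

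Genes to be named were a panel, the 12 largest changes in each direction among called genes with a mean of at least 1 CPM and reads in both classes, and the 3 members of each list with the smallest p. Not every gene of these sets is printed. Camk2a, Slc17a7, the genes without reads in the low units and the effective lengths were named after their values were seen. Alternatives were DESeq2 1.42.0, limma 3.58.1 (voom, and log2(TPM + 1) or log2(TPM + 0.1)), RLE factors, no filter, other treatments of the pairs, covariates, single treatments, other thresholds and leaving out each unit. Leaving out lemborexant 7 and vehicle 7 was added after seeing the data.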

Additional observations from a re-analysis of the deposited data

Results flagged for a closer look

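Each panel gene and each of the largest changes (36 genes) was searched for a unit that stood apart from the other Cst7-high units of its treatment, in 72 groups of 6 lemborexant or 7 vehicle units. The gap between that unit and its nearest neighbour, as a share of the group's range, passed Dixon's 95% value in 8 groups. Chance alone passes about 1 group in 20. Lemborexant 6 stood highest of the lemborexant units for Tyrobp, the microglial adaptor (464 CPM, next 182), for Apoe (373 CPM, next 158) and for Apoc4 (36.0 CPM, next 6.97). Vehicle 7 stood highest of the vehicle units for Apoc4 (27.4 CPM, next 7.42), for the interferon-inducible Ifi206 (3.97 CPM, next 2.24) and for the keratin Krt2 (4.24 CPM, next 2.07). Vehicle 7 also had the highest mean level of the liver list. The part of liver RNA in its values was not tested. P2ry12, the receptor of resting microglia, was highest in vehicle 3 (118 CPM, next 88.4). Pla2g3, a secreted phospholipase, was highest in lemborexant 2 (3.34 CPM, next 2.08).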

How the results depend on the processing

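Against 1928 genes called, 1608 lower and 320 higher, DESeq2 called 2953 with 804 higher, and voom with quality weights called 4257, 2804 lower and 1453 higher. Higher calls numbered 152 without the expression filter, 54 on log2(TPM + 1) and 47 on log2(TPM + 0.1). With 19 libraries counted separately 3754 were called, 2565 lower and 1189 higher, and 3 genes had a treatment by class interaction. With the 19 libraries separate and the library number series as a covariate as well, 3897 were called, 2619 lower and 1278 higher, so most of that move came with the separate libraries. Within vehicle 1006 were called, 905 lower and 101 higher, and within lemborexant, with 1 low unit, 0 in total, 0 lower and 0 higher. At an adjusted p of 0.1, 2991 were called with 816 higher. Leaving out each unit gave 739 to 2339 calls, 723 to 1808 lower and 16 to 584 higher, with 1245 calls and 115 higher without vehicle 4 and 531 higher without lemborexant 7. Without lemborexant 7 and vehicle 7, 2123 were called. Classes cut at 0.5 or 2 CPM of Cst7 were identical. P2ry12 turned sign within vehicle (0.11, against -0.84 within lemborexant) and without lemborexant 1 and 10 (0.13). The cause of these shifts was not tested. No paired analysis was possible because the labels give no shared replicate numbers. The low class holds 3 units, and for its rarest genes a handful of reads, which limits those ratios.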

Other observations

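On chromosome 3, a cluster of gene models chosen after seeing their values was silent in the Cst7-low units. Gm6214, a processed pseudogene (chr3:140839097-140839637), Gm32754, a long noncoding model (chr3:140904998-140917459), and 4930590L14Rik, another (chr3:140951876-140953247), lie within 114150 bases in GRCm38 and had 0 reads in the low units. The 13 high units held 91, 67 and 240 reads of them, spread over 13, 12 and 13 units. Gm43276, a pseudogene between the first pair, had no reads in any unit.

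Gbp2b, an interferon-induced GTPase, had 0 reads in the 3 low units and also in the high units lemborexant 5, lemborexant 7 and vehicle 8, while its highest unit held 15.5 CPM. Prnd, the gene beside Prnp that encodes doppel, had reads in 2 of the 13 high units, 22 in all, and 0 in the low units.

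The effective length of Clec7a was 2030 to 2074 bases in the low and 1456 to 1615 bases in the high units, but the low values rest on 25 reads. That of Trem2 was 1028 to 1129 against 966 to 1049 bases (exact two-sided permutation test, n = 3 and 13, p = 0.00714), and that of Gfap 2568 to 2601 against 2539 to 2608 bases (p = 0.9, same exact test).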
